A study of Mus with 6 samples.

Results

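The genes described here form the start of the heavy-strand transcript of mouse mitochondrial DNA: 2 ribosomal RNAs and the 3 transfer RNAs that flank them. They were taken by their Ensembl IDs, in genome order mt-Tf, mt-Rnr1, mt-Tv, mt-Rnr2 and mt-Tl1, and make up 5 of the 35304 IDs in the count table. RNA sequencing was done on 4T1, a mouse mammary carcinoma cell line. The treated cells were exposed to IPA, which is isopimaric acid, a diterpene made by conifers; the dose was 10 µg/mL and the exposure lasted 24 h. The other cells were untreated. Each group held 3 samples, all grown in the same serum-supplemented medium. No label tells whether replicates were separate cultures, so each p-value speaks of the spread among these samples, which could be technical.

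Mitochondrial DNA is copied from its heavy-strand promoter into long precursor RNAs. The tRNAs sit between the longer genes of the precursor. The enzymes RNase P and ELAC2 cut them out at their 5′ and 3′ ends, which also frees the rRNAs. The rRNAs mt-Rnr1 and mt-Rnr2 are the cores of the small and large subunits of the mitochondrial ribosome, which makes the few proteins of oxidative phosphorylation that mitochondrial DNA encodes. In human cells the factor MTERF1 binds within the gene that corresponds to mt-Tl1, at the downstream border of the unit.

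In the GRCm38.p6 annotation of RefSeq the unit covers positions 1 to 2750 of the mitochondrial chromosome. The gene mt-Tf (ENSMUSG00000064336), which RefSeq calls TrnF, encodes the tRNA for phenylalanine at positions 1 to 68. After a gap of 1 base, mt-Rnr1 (ENSMUSG00000064337) follows at positions 70 to 1024. The valine tRNA gene mt-Tv (ENSMUSG00000064338, TrnV in RefSeq) lies at 1025 to 1093, directly against mt-Rnr2 (ENSMUSG00000064339) at 1094 to 2675. The last gene, mt-Tl1 (ENSMUSG00000064340, TrnL1 in RefSeq), encodes a leucine tRNA at 2676 to 2750 and is followed without a gap by the mRNA gene ND1. The rRNA genes are 955 and 1582 nt long, and the tRNA genes 68, 69 and 75 nt.

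Libraries ranged from 3410411 to 58924711 counts, the shallowest being IPA replicate 1 and the deepest untreated replicate 2. One library, untreated replicate 2, was unlike the rest: in log2 expression, across genes, it correlated with the other 5 at 0.779 to 0.811, against 0.922 to 0.987 among those 5. The group comparisons are therefore given with all 6 libraries and without untreated replicate 2. The files do not pair IDs with gene names, so markers of epithelial or other cells were not analysed here. Whether libraries were made by poly(A) selection or rRNA depletion is not stated in the labels. The rRNA levels are thus levels in the libraries, not known shares of cellular RNA.

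The large-subunit rRNA mt-Rnr2 was the most abundant of the 5 genes by reads. In CPM (reads of a gene per 1000000 counts of its library) it had 988, 814 and 723 CPM in IPA replicates 1, 2 and 3, against 863, 2545 and 707 CPM in untreated replicates 1, 2 and 3. The groups overlapped, with untreated replicate 2 far above the rest and the other 5 libraries within the range set by untreated replicate 3 and IPA replicate 1. Among all IDs of a library its rank by count ran from 41 to 73 in IPA libraries and from 23 to 101 in untreated libraries. It averaged 842 ± 134 CPM with IPA and 1372 ± 1019 CPM in untreated cells (SD, n = 3 each). Leaving out untreated replicate 2, the untreated mean was 785 ± 110 CPM (SD, n = 2).

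The small-subunit rRNA mt-Rnr1 had 693, 544 and 550 CPM in IPA replicates 1, 2 and 3, against 461, 1540 and 360 CPM in untreated replicates 1, 2 and 3. All 3 IPA libraries lay above untreated replicates 1 and 3 and below untreated replicate 2. The mean was 595 ± 84.5 CPM with IPA and 787 ± 654 CPM in untreated cells (SD, n = 3 each). Without untreated replicate 2 the untreated mean was 411 ± 71.6 CPM (SD, n = 2), and the groups no longer overlapped. Of the 25592 IDs tested in those 5 libraries, 19.8% had every IPA library above every untreated one.

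The leucine tRNA gene mt-Tl1 was the only one of the 5 whose CPM did not overlap between the groups over 6 libraries. It had 14.7, 12.2 and 10.9 CPM in IPA replicates 1, 2 and 3, from 50, 532 and 448 reads. In untreated replicates 1, 2 and 3 it had 73.3, 16.4 and 59.3 CPM, from 1485, 967 and 3133 reads. All 3 IPA libraries lay below all 3 untreated libraries, as for 6.38% of the 24935 IDs tested over 6 libraries. For IPA replicate 1, the gap to untreated replicate 2 was within counting error. Its exact 95% interval, 10.9 to 19.3 CPM, spans that of untreated replicate 2, 15.4 to 17.5 CPM. The intervals of IPA replicates 2 and 3 ended lower, at 13.3 and 12.0 CPM. Untreated replicate 2 lay much nearer to the IPA libraries than to the other untreated ones. The mean was 12.6 ± 1.90 CPM with IPA and 49.7 ± 29.6 CPM in untreated cells (SD, n = 3 each), or 66.3 ± 9.93 CPM in untreated cells without replicate 2 (SD, n = 2). In the 5 libraries without untreated replicate 2, 13.9% of IDs had every IPA library below every untreated one.

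The other tRNA genes had very few reads. The valine tRNA gene mt-Tv, whose product is also a structural part of the mitochondrial ribosome in human cells, had 1, 5 and 8 reads in IPA replicates 1, 2 and 3, against 6, 130 and 13 reads in untreated replicates 1, 2 and 3. In CPM these were 0.293, 0.115 and 0.195 with IPA and 0.296, 2.21 and 0.246 in untreated cells. Only untreated replicate 2 stood out, and without it the groups still overlapped. The ratio of summed IPA reads to summed untreated reads, each over the summed library totals, was 0.141 over 6 libraries, with an exact 95% interval of 0.0752 to 0.244 for counting error only. With that library left out the ratio was 0.612, with an interval of 0.284 to 1.29.

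The phenylalanine tRNA gene mt-Tf had 0, 2 and 1 reads in IPA replicates 1, 2 and 3, against 4, 5 and 1 in untreated replicates 1, 2 and 3. For the 0 in IPA replicate 1, a floor of 3 counts is 0.880 CPM, and the exact 95% interval reaches 1.08 CPM. Both are above the level of every other library. Summed over libraries there were 3 reads with IPA and 10 in untreated cells, a ratio, each over the summed library totals, of 0.450 with an exact 95% interval of 0.0796 to 1.75. With untreated replicate 2 left out the ratio was 0.498, with an interval of 0.0774 to 2.56. A difference was not detectable at this depth.

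**Figure D1:**
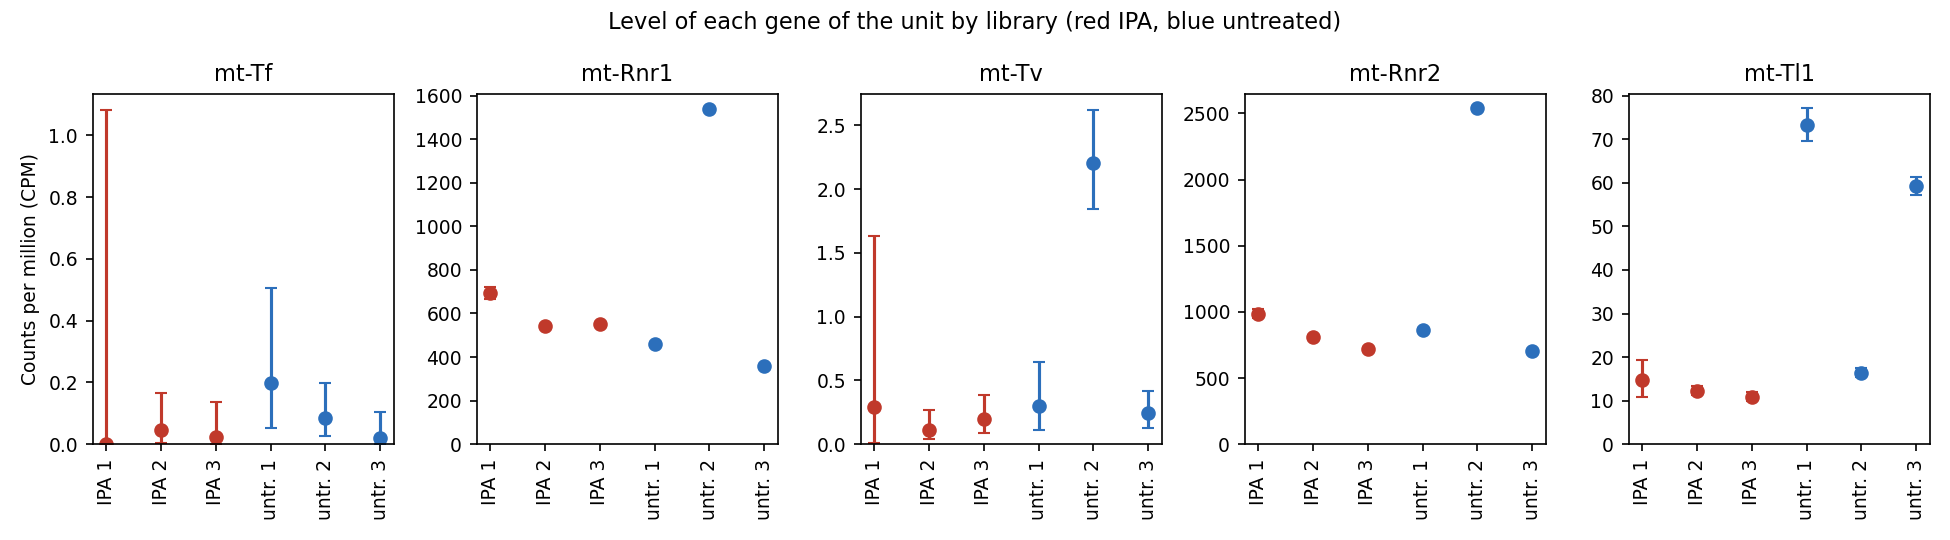
Level in CPM of each of the 5 genes, in genome order, with 1 point per library (red IPA, blue untreated) and bars for the exact 95% Poisson interval, which covers counting error only; each panel has its own axis from 0. The point of untreated replicate 2 is high for mt-Rnr1 (1540 CPM), mt-Tv and mt-Rnr2 (2545 CPM) and low for mt-Tl1 (16.4 CPM), where the IPA libraries sit at 10.9 to 14.7 CPM.

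Untreated replicate 2 thus differed from the other untreated libraries in a different direction for different genes of the unit. Relative to the mean CPM of untreated replicates 1 and 3, it held 3.75 times as much mt-Rnr1, 3.24 times as much mt-Rnr2 and 8.14 times as much mt-Tv. For mt-Tl1 it held 0.248 times that mean. These ratios rest on library totals, and their size depends on the scaling. With TMM normalization factors, mt-Rnr1 was at 2048 CPM in untreated replicate 2, against 454 and 352 in untreated replicates 1 and 3. On that scale mt-Tl1 was at 21.8 CPM, against 72.1 and 58.0, so both directions stayed the same. The part of this library in any result was measured by leaving it out.

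Levels of different genes were compared per length, as CPM divided by gene length in kilobases (RPKM). Per length, mt-Rnr1 had 726, 569 and 575 RPKM in IPA replicates 1, 2 and 3, against 483, 1612 and 377 RPKM in untreated replicates 1, 2 and 3. The corresponding values of mt-Rnr2 were 624, 514 and 457 RPKM with IPA, against 545, 1609 and 447 RPKM in untreated cells. The level of mt-Rnr1 per length was therefore above that of mt-Rnr2 in every IPA library and below it in untreated replicates 1 and 3, while untreated replicate 2 had nearly equal values.

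The level of mt-Tl1 per length was 195, 163 and 146 RPKM in IPA replicates 1, 2 and 3, against 977, 219 and 790 RPKM in untreated replicates 1, 2 and 3. It was above both rRNAs in untreated replicates 1 and 3 and below both in the other 4 libraries. Relative to mt-Rnr2 it was 0.313, 0.316 and 0.318 with IPA, against 1.79, 0.136 and 1.77 in untreated cells. The 3 IPA libraries were nearly alike in this ratio, while untreated replicate 2 was below them and the other untreated libraries above. Both other tRNA genes stayed far lower, with mt-Tv at 1.66 to 4.25 RPKM with IPA and 3.56 to 32.0 RPKM in untreated cells, and mt-Tf at 0 to 0.675 RPKM with IPA and 0.278 to 2.90 RPKM in untreated cells. A read counted for a tRNA gene can come from a mature tRNA or from an uncut precursor, and the counts do not tell these apart. How reads that span 2 adjoining genes were assigned is not given in the sources used here, and this touches a gene of 75 nt more than one of 1582 nt.

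**Figure D2:**
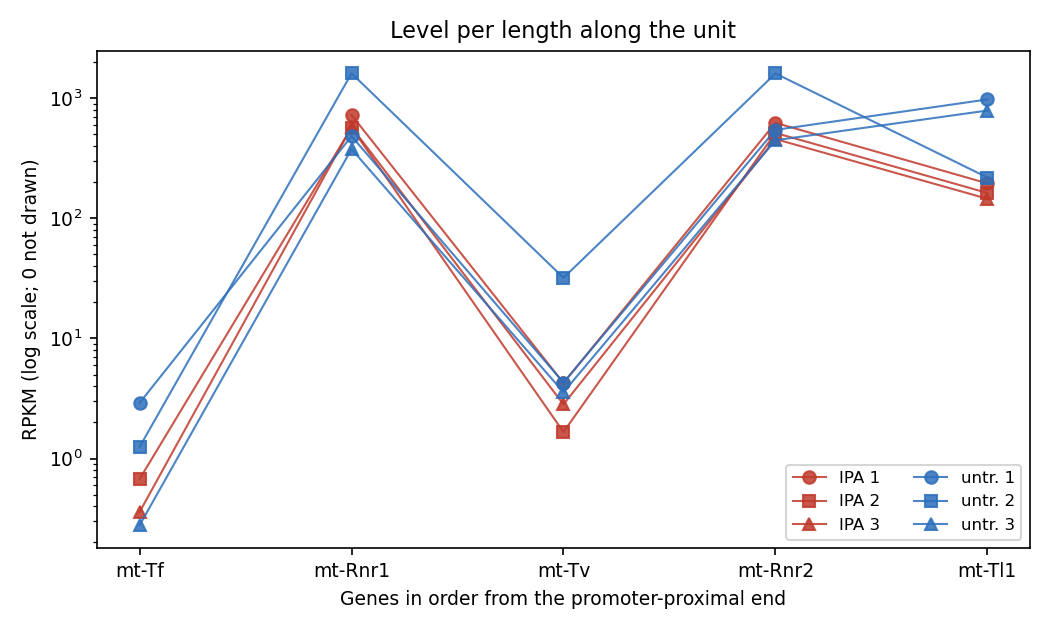
Level per length (RPKM, log scale) of the 5 genes in order along the unit, with 1 line per library (red IPA, blue untreated); the 0 of mt-Tf in IPA replicate 1 is not drawn. The lines of all libraries dip at mt-Tv, and at mt-Tl1 untreated replicates 1 and 3 (977 and 790 RPKM) part from the other 4 libraries (146 to 219 RPKM).

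Within the unit, the share of mt-Rnr1 in the rRNA reads was higher in each IPA library than in each untreated library. Of the reads of both rRNAs, mt-Rnr1 took 41.2%, 40.0% and 43.2% in IPA replicates 1, 2 and 3, against 34.8%, 37.7% and 33.8% in untreated replicates 1, 2 and 3. The lowest IPA library had an exact 95% binomial interval of 39.6% to 40.4%, and the highest untreated library one of 37.5% to 37.9%, both for counting error only. The groups did not overlap, and untreated replicate 2 was the untreated library nearest to the IPA ones. How often the ratio of other pairs of IDs keeps the groups apart was not computed. Across all IDs, replicates of a group differed by more than counting error, so these intervals understate the spread between libraries. Divided by length, the ratio of mt-Rnr1 to mt-Rnr2 was 1.16, 1.11 and 1.26 with IPA, against 0.886, 1.00 and 0.844 in untreated cells.

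On the log2 scale the ratio of mt-Rnr1 to mt-Rnr2 reads averaged -0.50 ± 0.09 with IPA and -0.87 ± 0.13 in untreated cells (SD, n = 3 each), a difference of 0.37 or 1.29-fold. The two-sided exact permutation test gave p = 0.1, the smallest that 3 samples against 3 allow, and p = 0.3 after Benjamini-Hochberg adjustment over the 3 within-library measures tested. All 3 IPA libraries were above all 3 untreated libraries. Without untreated replicate 2 the difference was 0.44, again with the smallest exact permutation p that the 10 splits allow, 0.1. Both rRNA rows come from the same library, so this ratio does not depend on library size or on a normalization factor.

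The balance of tRNA to rRNA reads rested on mt-Tl1, which supplied 98.0% to 98.7% of the tRNA reads with IPA and 87.7% to 99.6% in untreated cells. There were 87.2, 89.9 and 85.8 mt-Tl1 reads per 10000 rRNA reads in IPA replicates 1, 2 and 3, against 554, 40.2 and 555 in untreated replicates 1, 2 and 3. Untreated replicates 1 and 3 agreed closely, and untreated replicate 2 was the lowest of all 6 libraries. The log2 ratio of summed tRNA to summed rRNA reads averaged -6.80 ± 0.03 with IPA and -5.37 ± 2.08 in untreated cells (SD, n = 3 each). The difference of -1.44 had an exact permutation p of 0.4 (two-sided; 0.6 adjusted), and the groups overlapped. In the 5 libraries that exclude untreated replicate 2 the difference was -2.64, or 6.23-fold lower with IPA, with an exact permutation p of 0.1, the smallest possible.

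Per 10000 rRNA reads, mt-Tv gave 1.74, 0.845 and 1.53 reads with IPA, against 2.24, 5.40 and 2.30 in untreated cells. All 3 IPA libraries were below all 3 untreated ones, but the 95% interval of IPA replicate 1, 0.0442 to 9.73, spans them all. The intervals of IPA replicates 2 and 3, 0.274 to 1.97 and 0.661 to 3.02, overlapped those of untreated replicates 1 and 3. These were 0.821 to 4.87 and 1.23 to 3.94. The share of all IDs that separate in this way per rRNA read was not computed.

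**Figure D3:**
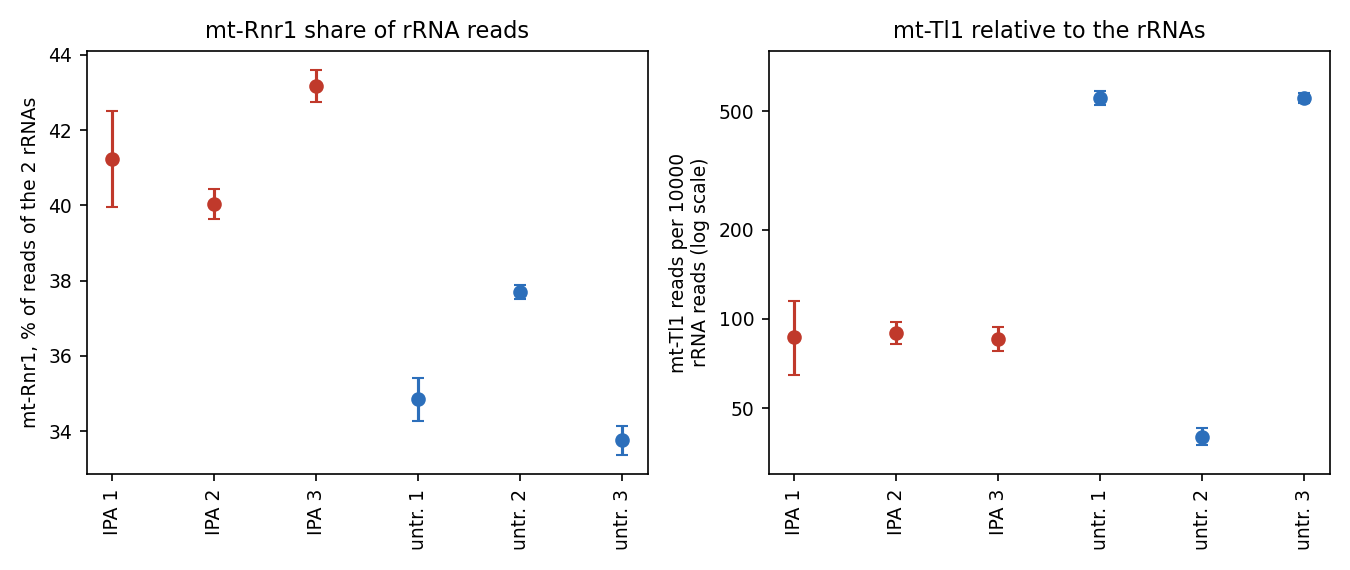
Left, the share of mt-Rnr1 in the reads of both rRNAs (percent; the axis does not start at 0); right, mt-Tl1 reads per 10000 rRNA reads (log scale); 1 point per library, red IPA and blue untreated, with exact 95% binomial intervals for counting error only. The mt-Rnr1 share is 40.0% to 43.2% in the IPA libraries and 33.8% to 37.7% in the untreated ones, while the right panel shows untreated replicate 2 (40.2) below the IPA libraries and untreated replicates 1 and 3 (554 and 555) above them.

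The 5 genes together took 0.170%, 0.137% and 0.128% of all counts in IPA replicates 1, 2 and 3, against 0.140%, 0.410% and 0.113% in untreated replicates 1, 2 and 3. The groups overlapped. The mean share was 0.145 ± 0.0217% with IPA and 0.221 ± 0.165% in untreated cells (SD, n = 3 each), a difference of -0.076 percentage points (exact permutation p = 0.8, two-sided and also after adjustment). When untreated replicate 2 was left out, the difference had the opposite sign, 0.0187 percentage points (exact permutation p = 0.6).

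The test across all genes was the edgeR quasi-likelihood test, with Benjamini-Hochberg adjustment over all IDs tested and a call at an adjusted p under 0.05. Of the 5 genes, 4 passed the filter on low counts, and mt-Tf did not. Over all 6 libraries 0 of the 4 were called, where 0% of the 24935 IDs tested were called; 1560 IDs had an unadjusted p under 0.05. Over the same libraries DESeq2 called 85 of the 18483 IDs to which it gave an adjusted p, 22 higher and 63 lower. In limma-voom 0 of the 24935 IDs were called. The log2 fold changes were -0.79 ± 0.66 for mt-Rnr1, -2.80 ± 1.27 for mt-Tv, -1.08 ± 0.62 for mt-Rnr2 and -2.13 ± 0.45 for mt-Tl1 (IPA over untreated, SE). Their edgeR adjusted p-values were 0.701 for mt-Rnr1 and 0.657 for each of the others. By DESeq2 on the same 6 libraries, mt-Tl1 had a log2 fold change of -2.11 ± 0.50 and an adjusted p of 0.0102.

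Without untreated replicate 2, mt-Tl1 fell by 2.55 ± 0.17 on the log2 scale with IPA, or 5.85-fold (SE; edgeR adjusted p = 1.97e-08), and was below untreated replicates 1 and 3 in 3 of 3 IPA libraries. It ranked 5 by p-value among the 25592 IDs tested. In this comparison 2.2% of IDs were called lower and 1.26% higher, and mt-Tl1 was the only one of the 4 tested genes of the unit to be called. For mt-Rnr1 the log2 fold change was 0.42 ± 0.15, with an edgeR adjusted p of 0.145 and an unadjusted p of 0.0128, higher in 3 of 3 IPA libraries. Neither was rare in this comparison: 16.8% of IDs (4312) had an unadjusted edgeR p under 0.05, and mt-Rnr1 ranked 2260 by p-value. Every IPA library was above both untreated libraries for 19.8% of IDs, and below both, as for mt-Tl1, for 13.9%. The value of mt-Rnr2 was -0.01 ± 0.16 (edgeR adjusted p = 0.987) and that of mt-Tv was -0.77 ± 0.93 (edgeR adjusted p = 0.776). These values set 2 untreated libraries against 3 IPA libraries, and the choice of the library left out was made with its values known.

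The direction of mt-Rnr1 depended on untreated replicate 2, being lower with IPA when that library was included and higher when it was not; neither passed the test. The choice of normalization moved the median log2 fold change of all IDs by 0.21 over 6 libraries and by 0.10 without untreated replicate 2, when library totals replaced TMM factors. Relative to the median of all IDs, mt-Rnr1 without untreated replicate 2 was 0.47 higher under both scalings. On the same relative scale and in the same 5 libraries, mt-Rnr2 was 0.03 higher with TMM factors and 0.04 higher with library totals, and mt-Tl1 was at -2.51 and -2.50. Over 6 libraries the values relative to the median, with TMM factors and with library totals, were -0.71 and -0.53 for mt-Rnr1, -1.002 and -0.84 for mt-Rnr2, and -2.05 and -2.12 for mt-Tl1. In bulk RNA, fewer cells that carry a transcript and less of it per cell cannot be told apart.

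**Figure D4:**
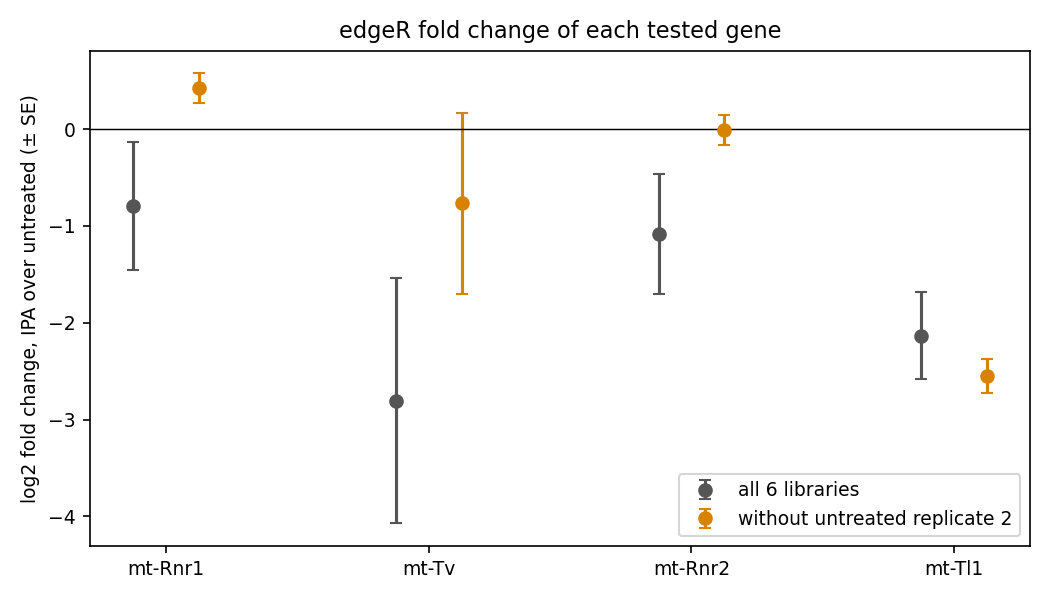
Log2 fold change (IPA over untreated) of the 4 genes that passed the filter, with the edgeR estimate as points and its SE as bars, for all 6 libraries (grey) and without untreated replicate 2 (orange). For mt-Tl1 both estimates are negative (-2.13 and -2.55), while mt-Rnr1 has a negative value with all libraries (-0.79) and a positive one without untreated replicate 2 (0.42).

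As a description, over the 6 libraries the log2 levels of mt-Rnr1 and mt-Rnr2 had a Pearson correlation of 0.968, but 0.553 over the 5 libraries without untreated replicate 2. Between mt-Rnr1 and mt-Tl1 it was -0.249 over 6 libraries and -0.744 over 5. Among the 13110 other IDs that averaged 5 CPM or more, the one most like mt-Rnr1 over 6 libraries was ENSMUSG00000078489, at 0.995, and at 0.967 over the 5 without untreated replicate 2. For mt-Rnr2 it was ENSMUSG00002076650, tied with 1 other ID, at 0.999 over 6 libraries and 0.967 over those 5. Over 6 libraries, 547 IDs were above 0.95 for mt-Rnr1 and 1252 for mt-Rnr2, against 50 for mt-Tl1. The ID most like mt-Tl1, looked up after its values were seen, was ENSMUSG00000065947, at 0.999 over 6 libraries and 1.00 over the 5 without untreated replicate 2. The names of these IDs are not given in the files.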

How the data were processed

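The authors deposited raw read counts per Ensembl ID, whole numbers with 1 column per library. The submitters' processing notes name GRCm38 and mm10; the aligner, counter, annotation release, strand and treatment of multi-mapping reads were not found in the labels, so reads shared with nuclear copies of mitochondrial DNA make these values uncertain. No other ID was within 2% of mt-Rnr1, mt-Rnr2 or mt-Tl1 in every library. That check finds only duplicate rows and cannot detect reads shared in part with nuclear copies. Groups came from the sample titles; the members' names from the rule that chose them, and positions and lengths from RefSeq. That table pairs 0 of its 49997 genes with an Ensembl ID, so lists fixed by symbol (other mitochondrial transcripts, ribosome assembly factors, cell markers) and the ratio of rRNAs to mitochondrial mRNAs were not analysed here. No sequence is printed.

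Counts were compared with edgeR 4.0.16 in R 4.3.3 (robust quasi-likelihood F-test, TMM, filterByExpr); DESeq2 1.42.0 and limma 3.58.1 were alternatives. The SE was the log2 fold change over the square root of F. CPM used library totals; 3 counts were 0.0509 to 0.880 CPM. Intervals cover counting error only. The edgeR procedure was also run on simulated libraries drawn from a pooled profile. None of them was made to stand apart as untreated replicate 2 did, so that run cannot show how such a library affects the calls. No replicates agreed within sampling noise (chi-square per degree of freedom at least 7.11). Named were all 5 genes and, by Pearson correlation of log2 CPM (prior count 2), the IDs most like the rRNAs; the ID most like mt-Tl1 was added after its values were seen. Members, lists and the library left out were chosen with earlier results of these data known.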

Additional observations from a re-analysis of the deposited data

How the results depend on the processing

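Leaving out 1 of the 6 libraries gave 0 to 322 higher and 0 to 564 lower IDs, a log2 fold change of mt-Tl1 of -2.55 to -1.75 and one of mt-Rnr1 of -1.16 to 0.42, with the upper end for mt-Rnr1 and all calls from leaving out untreated replicate 2. For mt-Tl1 that setting (-2.55) and DESeq2 (-2.11) passed the test, with adjusted p-values of 1.97e-08 and 0.0102, and the other 13 of 15 alternatives did not, with adjusted p-values from 0.493 to 0.998. Over 6 libraries DESeq2 called 22 higher and 63 lower; library totals and no filter called 1 higher each. Without untreated replicate 2, mt-Tl1 was called in 14 of 14 alternatives (-2.70 to -2.37; adjusted p from 4.54e-39 to 9.33e-06) and mt-Rnr1 in 0 of 14 (0.25 to 0.63; adjusted p from 0.0545 to 0.446). The near-zero value of mt-Rnr2 there changed sign with DESeq2 (0.0108), RLE factors (0.0140), library totals (0.0990), no filter (0.0222), a filter of 1 CPM in 3 samples (0.0071), the replicate block (0.0057), and ran from -0.16 to 0.15 when another library was left out as well (0.0472 without IPA replicate 2, 0.111 without IPA replicate 3, 0.153 without untreated replicate 1). Calls there were 634 higher with DESeq2; 660 and 1009 lower with limma-voom; 691 and 327 with library totals, so that the higher share of calls moved from 36.3% to 67.9%; 701 higher with no filter; 357 lower at 1 CPM in 3 samples; and 92 to 719 higher and 153 to 763 lower with another library left out as well (719 higher without IPA replicate 1; 244 lower without IPA replicate 2; 131 higher and 153 lower without IPA replicate 3; 92 and 170 without untreated replicate 1; 509 higher without untreated replicate 3). What caused these shifts was not tested.

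The difference in the log2 ratio of mt-Rnr1 to mt-Rnr2 was 0.32 to 0.45 over 8 alternatives. That in the unit's share of counts changed sign without untreated replicate 2 (0.0187 percentage points) and without IPA replicate 1 as well (0.0065), and ran from -0.13 to 0.0187 when 1 library was left out. That in the tRNA to rRNA ratio ran from -2.64 to -0.84. With the replicate block, 0 IDs were called over 6 libraries, and 136 higher and 202 lower without untreated replicate 2. The deviations of samples that share a number had correlations of -0.0771, 0.0183 and 0.161; 3 of 6 samples correlated best with their own number, so the numbers were not taken as pairs. Leaving the 5 genes out of the totals was chosen after seeing the data; settings that need other mitochondrial genes by name were not run. Depth limits mt-Tf in every library and mt-Tv in every library but untreated replicate 2, and it limits IPA replicate 1 most.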
